A study of Mus musculus with 18 samples.

Results

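Arhgap36, Stk32a, Susd2, Anxa2, Lgals1, Fxyd7, Vdr and Sncg are 8 protein-coding genes, of 38924 genes in the tables, whose mRNA was strongly enriched with the ribosomes of cholinergic neurons of the mouse spinal cord. They were picked on that enrichment, seen in mice of both Gars genotypes or in wild-type mice, with no numeric threshold. Their enrichment is therefore given as a description with no test. Ribosome-associated mRNA was collected with RiboTag, a mouse line whose ribosomal protein Rpl22 gains a haemagglutinin tag in cells that express Cre recombinase, and an antibody to the tag brings down the tagged ribosomes with the mRNA they carry. All 18 mice were 8 weeks old, had the mixed strain background B6;CASTxB6.129 and carried the tag allele (genotype Rpl+/-). The mice with Cre (Chat+/-) had the P278KY allele of Gars on 1 chromosome (Cre P278KY, n = 3) or normal Gars (Cre WT, n = 4). The negative controls (Chat+/+) lacked Cre and formed the groups NoCre P278KY (n = 6) and NoCre WT (n = 5). Gars encodes glycyl-tRNA synthetase, and P278KY is a dominant allele that models an inherited motor neuropathy. Cre was driven from Chat, so motor neurons are not separated from cholinergic interneurons and autonomic neurons.

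Cholinergic neurons of the spinal cord make acetylcholine with the enzyme choline acetyltransferase, which Chat encodes, and the large motor neurons among them send axons out to muscle. The 8 genes belong to unrelated families. Arhgap36 encodes an inhibitor of protein kinase A that activates hedgehog signalling, and Stk32a encodes a serine/threonine kinase. Vdr encodes the vitamin D receptor, a nuclear receptor that binds DNA together with a retinoid X receptor. Fxyd7 encodes a small membrane protein that modulates the sodium pump, and Susd2 a membrane protein with a sushi domain. Anxa2 encodes a calcium-dependent membrane-binding protein that pairs with S100a10, Lgals1 a lectin that binds galactosides (galectin-1), and Sncg the gamma member of the synucleins, small proteins abundant in nerve terminals and axons.

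The 250 bases before the RefSeq start (GRCm38.p6) were used for Anxa2, Sncg, Vdr and Arhgap36. Those of Stk32a, Susd2, Lgals1 and Fxyd7 were not analysed here. The 4 windows are shown as a description, and the motifs found in them are compared. The level pattern that these genes share is the enrichment with Cre for which all 8 genes were picked. Each is written 5′ to 3′ in the direction of the gene, at chr9:69453433-69453682 for Anxa2, chr14:34374670-34374919 for Sncg, chr15:97908297-97908546 for Vdr and chrX:49463695-49463944 for the first of the 2 starts of Arhgap36. The first Arhgap36 start is also the first base of the GENCODE M21 gene, but the RefSeq start lies inside that gene by 63 bases for Anxa2, 120 for Sncg and 2334 for Vdr, so the whole Vdr window is within the annotated gene. Capitals mark matches, on either strand, to the GC box GGGCGG, which reads CCGCCC on the opposite strand, or to the nuclear receptor hexamer AGGTCA, which reads TGACCT there. They also mark matches to the TATA box, searched as TATAAA, and to the binding site of the transcription factor AP-1, searched as TGANTCA.
Anxa2: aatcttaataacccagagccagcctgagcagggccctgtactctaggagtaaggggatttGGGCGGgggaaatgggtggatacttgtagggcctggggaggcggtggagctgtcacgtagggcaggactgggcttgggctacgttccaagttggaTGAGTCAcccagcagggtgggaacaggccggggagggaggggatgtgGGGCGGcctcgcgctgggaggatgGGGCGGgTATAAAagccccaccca
Sncg: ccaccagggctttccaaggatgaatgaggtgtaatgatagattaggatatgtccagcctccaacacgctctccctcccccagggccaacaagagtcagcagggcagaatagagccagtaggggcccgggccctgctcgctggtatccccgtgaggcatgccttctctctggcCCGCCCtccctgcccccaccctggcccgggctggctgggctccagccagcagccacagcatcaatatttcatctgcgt
Vdr: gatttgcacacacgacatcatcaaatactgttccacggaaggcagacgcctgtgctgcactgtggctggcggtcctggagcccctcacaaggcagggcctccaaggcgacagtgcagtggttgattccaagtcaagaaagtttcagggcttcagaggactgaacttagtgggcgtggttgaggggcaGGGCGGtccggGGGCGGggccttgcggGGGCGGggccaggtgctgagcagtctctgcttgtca
Arhgap36: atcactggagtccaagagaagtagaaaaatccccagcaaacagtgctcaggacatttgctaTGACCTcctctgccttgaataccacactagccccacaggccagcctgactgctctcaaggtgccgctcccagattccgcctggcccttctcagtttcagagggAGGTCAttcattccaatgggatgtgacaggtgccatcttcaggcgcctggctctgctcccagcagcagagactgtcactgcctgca

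No motif searched was present in all 4 windows. The Anxa2 window held 3 GC boxes, at 190, 48 and 24 bases before the start, with TGAGTCA at 95 and TATAAA at 17. The Vdr window held 3 GC boxes, at 63, 52 and 36 bases, and the Sncg window 1, at 78 bases on the opposite strand. The first Arhgap36 window held 2 nuclear receptor hexamers, at 189 bases on the opposite strand and at 86, and its second window (chrX:49470200-49470449) held no match. Of 32851 promoter windows of this length, 32.7% held a GC box, 14% a nuclear receptor hexamer, 12.4% a TATA box and 6.75% an AP-1 site. Neither a cAMP response element (TGACGTCA, 1.55% of windows) nor the homeodomain letters TAATTA (4.84%) occurred in the windows of these 4 genes. The 5 windows were 55.2% to 62.4% G and C, against a median of 52.4% over all windows.

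The genes lie apart from each other in the genome (GRCm38, GENCODE M21), and the spans run from the first to the last base of each gene. Arhgap36 (ENSMUSG00000036198) is at chrX:49463945-49500244 and Stk32a (ENSMUSG00000039954) at chr18:43207583-43318682, both on the plus strand. Susd2 (ENSMUSG00000006342) is at chr10:75636706-75644008 and Fxyd7 (ENSMUSG00000036578) at chr7:31042513-31051467, both on the minus strand. Anxa2 (ENSMUSG00000032231) is at chr9:69453620-69491795 and Lgals1 (ENSMUSG00000068220) at chr15:78926725-78930465, both on the plus strand. Vdr (ENSMUSG00000022479) is at chr15:97854425-97910630 and Sncg (ENSMUSG00000023064) at chr14:34370274-34374789, both on the minus strand. Of the 8, Anxa2 alone overlaps other annotated genes. These are the microRNA gene Mir3109, with no reads, and the antisense gene Gm16144, with at most 12 reads in a library.

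Libraries held 14659532 to 24028695 counts in the Cre groups and 8177817 to 14450218 in the NoCre groups. Mitochondrial ribosomal RNA took 1.36% to 4.88% of the counts with Cre and 24.2% to 53.8% without, and NoCre WT replicates 4 and 5 had the lowest shares of protein-coding counts (23.0% and 33.8%). The labels name no sequencing pool. A split into 10 libraries (pool 1) and 8 libraries (pool 2) was inferred from the index sequences and sample numbers in the descriptions, and each value by pool rests on that inference. Pool 1 held all Cre P278KY libraries with Cre WT replicates 1 and 2, and pool 2 held Cre WT replicates 3 and 4. Judged from Xist and the Y-linked transcripts, both pool 1 Cre WT mice were male, both pool 2 Cre WT mice female, and Cre P278KY held 1 male and 2 females. Among Cre WT mice, pool and sex cannot be told apart. Each library has its own mouse name, and replicate numbers only name mice. The first number in these names is shared by several libraries, also within a group, and its meaning is not given in the labels. The summed level of 10 cholinergic neuron markers was 1441 to 2662 CPM (counts per 1000000 after TMM scaling over all 18 libraries) with Cre and 70.5 to 124 CPM without. Without Cre the genotypes lay apart, with 70.5 to 85.7 CPM in NoCre P278KY and 112 to 124 CPM in NoCre WT.

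All 8 genes were higher in each Cre library than in each NoCre library of the same genotype, which is the pattern they were picked for. The fitted fold between Cre WT and NoCre WT ran from 10.1 for Stk32a to 28.5 for Lgals1, with 25.2 for Sncg, 23.5 for Fxyd7, 22.3 for Vdr, 21.6 for Arhgap36, 13.5 for Susd2 and 11.2 for Anxa2. The fold of Chat itself was 15.4, so 5 of the 8 genes had a larger fold than the gene that drove Cre. Among 17133 genes ranked by this fold, Lgals1 was at place 27, Sncg 29, Fxyd7 31, Vdr 35, Arhgap36 38, Susd2 82, Anxa2 107 and Stk32a 134, with Chat at 68. The median log2 fold change was 4.46 over the 8 genes and -0.12 over all genes. Of all genes tested, 28.5% were called higher in Cre WT by edgeR's quasi-likelihood test (adjusted p under 0.05), and nothing is read from the genes' own count, since this contrast chose them.

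In P278KY mice the order of the 8 genes changed. The fitted fold of Cre P278KY over NoCre P278KY was 34.9 for Arhgap36, 31.7 for Vdr, 22.5 for Sncg, 20.8 for Lgals1, 13.4 for Fxyd7, 11.9 for Anxa2, 7.48 for Stk32a and 6.14 for Susd2. Arhgap36 and Vdr thus led, and Susd2, at place 82 of 17133 in WT, was at place 347. For Arhgap36 the Cre mean was 254 CPM in WT and 267 CPM in P278KY, and the NoCre mean 11.7 and 7.68 CPM. For Vdr the Cre mean was 28.1 and 25.6 CPM, and the NoCre mean 1.25 and 0.792 CPM. The larger folds of these 2 genes went with lower NoCre means, and the fold of Chat was likewise larger, at 36.6 against 15.4 in WT. Lower NoCre levels were not particular to these genes, since 7 of the 8 had a NoCre log2 fold change below 0. Sncg, Lgals1, Fxyd7 and Susd2 had lower NoCre means in P278KY but smaller folds than in WT. Anxa2 also had a lower NoCre mean, and its fold was 11.9 against 11.2 in WT. The median log2 fold change was 4.06 over the 8 genes and -0.13 over all, and 28.2% of all genes were called higher. Both enrichments are set against their own NoCre libraries, in which these mRNAs were also present at a low level. The NoCre mean was 3.60% (Lgals1) to 9.90% (Stk32a) of the Cre mean in WT mice and 2.87% (Arhgap36) to 16.2% (Susd2) in P278KY mice. With ribosomal RNA genes left out of the library sizes, the median of all genes moved to -0.51 in WT and -0.56 in P278KY, and the lowest fold of the 8 genes was then that of Susd2 in P278KY mice, with a log2 fold change of 2.17.

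The levels by library show how far the groups were apart. Arhgap36 stood at 315, 300, 199 and 202 CPM in Cre WT replicates 1 to 4 and at 284, 233 and 285 CPM in Cre P278KY replicates 1 to 3. It stood at 16.2, 10.1, 8.15, 10.96 and 13.2 CPM in NoCre WT, and in NoCre P278KY the lowest, median and highest values were 6.16, 7.48 and 9.70 CPM. The Cre groups overlapped, and the lowest Cre library was more than 10 times the highest NoCre library. Vdr was the least abundant of the 8. Its level was 31.1, 29.7, 25.8 and 25.8 CPM in Cre WT and 29.6, 31.4 and 15.8 CPM in Cre P278KY, so the third P278KY library was low and the other two lay within or just above the WT range. In the NoCre groups Vdr rested on 4 to 20 reads a library (0.419 to 1.75 CPM), which limits the precision of its fold. Stk32a had 138, 121, 169 and 141 CPM in Cre WT, 114, 125 and 85.6 CPM in Cre P278KY and 10.7 to 17.7 CPM over the NoCre libraries. Its Cre groups overlapped, and it had the least distance from background in WT mice.

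**Figure D1:**
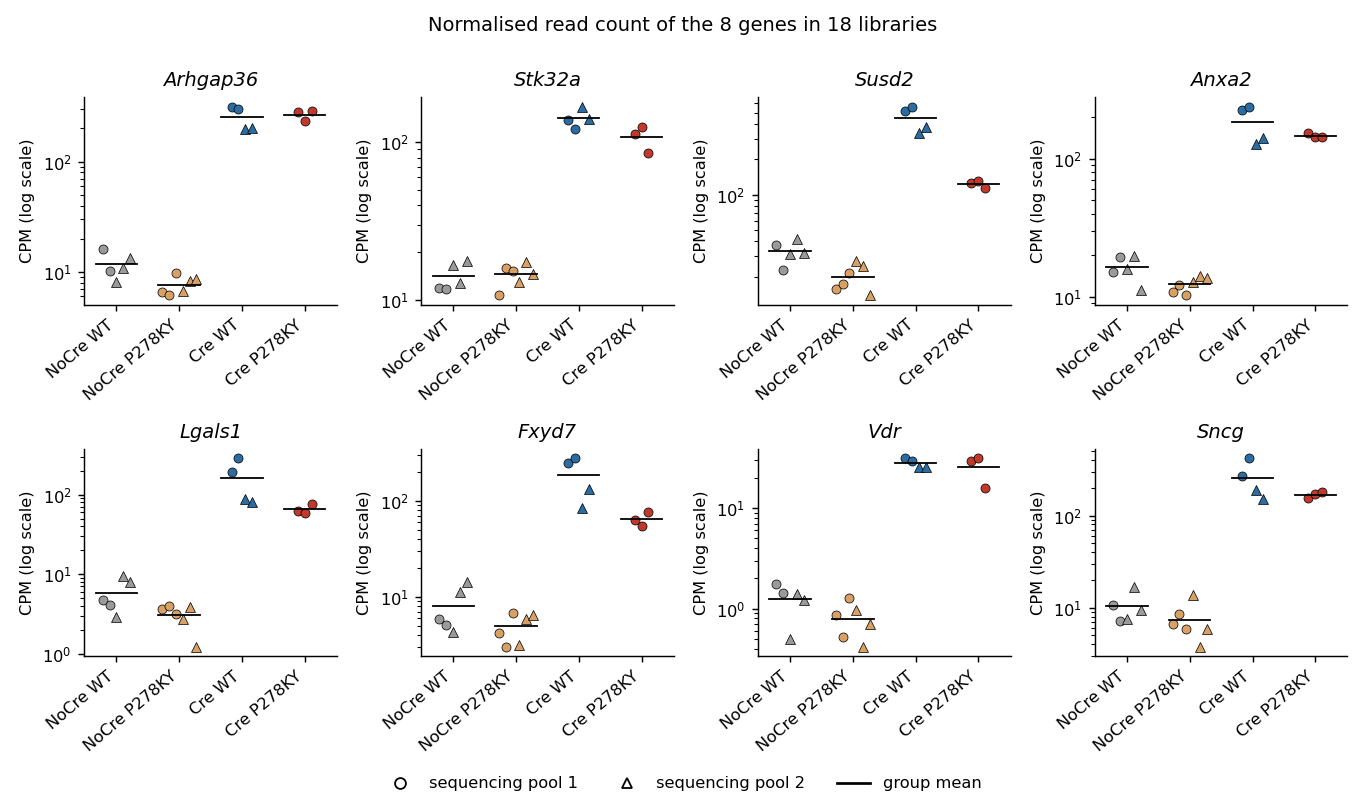
CPM of each gene (log axis, own scale for each panel) in every library of the 4 groups, with circles for sequencing pool 1, triangles for pool 2 and a bar at the group mean. For each gene every Cre library lies above every NoCre library, and for Susd2 the 3 Cre P278KY libraries (115 to 130 CPM) lie below the 4 Cre WT libraries (335 to 563 CPM).

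Levels of different genes can be compared only per length, for which the deposited TPM (transcripts per 1000000) were used. Sncg was the most abundant of the 8 in Cre WT, with 480 ± 120 TPM (SD, n = 4), followed by Fxyd7 with 438 ± 54.7 TPM, Lgals1 with 308 ± 77.2 TPM and Susd2 with 206 ± 42.0 TPM. Anxa2 had 189 ± 24.2 TPM, Arhgap36 123 ± 23.6 TPM, Stk32a 60.3 ± 33.3 TPM and Vdr 10.6 ± 3.13 TPM. The ranges of neighbours in this order overlapped except between Anxa2 and Arhgap36 and between Stk32a and Vdr. Sncg was above 99.4% of the 23232 genes detected in Cre WT, Stk32a above 93.2% and Vdr above 73.9%. For scale, Chat had 60.1 ± 5.67 TPM, a level per length that 6 of the 8 genes exceeded in each Cre WT library. TMM-scaled counts per kilobase gave the same order for all 8 genes.

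In Cre P278KY the order per length differed in its middle. Sncg (354 ± 96.7 TPM, n = 3) and Fxyd7 (175 ± 19.7 TPM) came first, then Anxa2 (167 ± 43.5 TPM), Lgals1 (146 ± 23.7 TPM) and Arhgap36 (135 ± 23.2 TPM). Susd2 (61.8 ± 20.5 TPM) had dropped from place 4 to place 6, and Stk32a (45.2 ± 19.5 TPM) and Vdr (10.4 ± 3.38 TPM) were again last. The TPM of Susd2 was 60.2, 83.0 and 42.1 in P278KY replicates 1 to 3 and 179, 166, 258 and 220 in WT replicates 1 to 4. For Fxyd7 the TPM was 172, 196 and 157 against 488, 473, 367 and 426. For Lgals1 it was 137, 172 and 127 against 308, 403, 307 and 214. In these 3 genes, and in no other of the 8, the TPM of the groups did not overlap. The share of all genes without overlap was not computed for TPM.

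**Figure D2:**
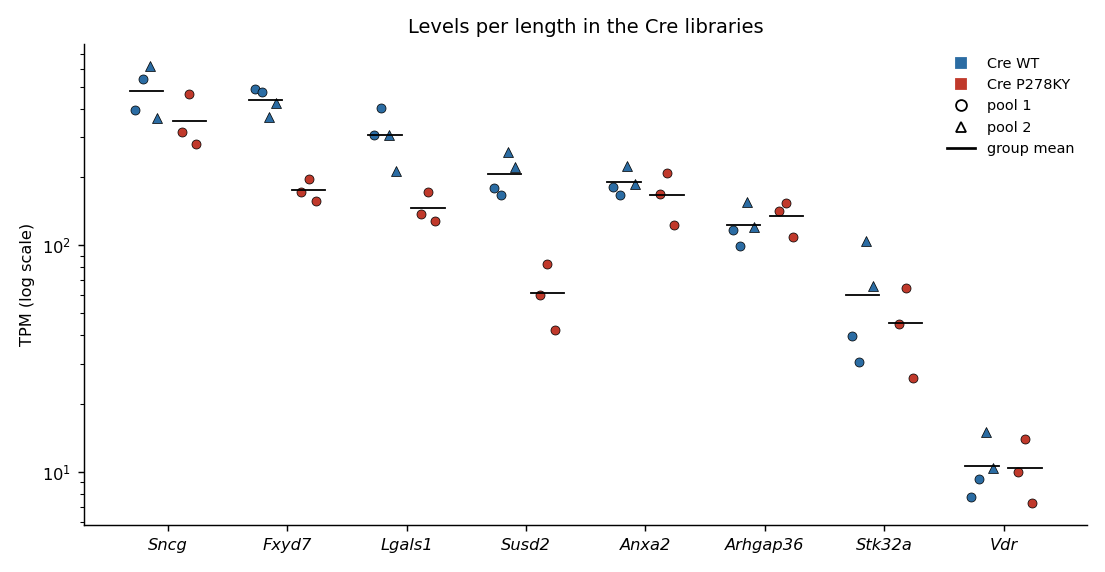
TPM (log axis) of the 8 genes in the 4 Cre WT and 3 Cre P278KY libraries, ordered by the Cre WT mean, with circles for pool 1, triangles for pool 2 and bars at the group means. The genes span from 480 TPM for Sncg to 10.6 TPM for Vdr in Cre WT, and the P278KY libraries lie apart and lower for Fxyd7, Lgals1 and Susd2.

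The genotype difference among the Cre libraries asked which of these mRNAs changed on the ribosomes of cholinergic neurons with mutant Gars. Susd2 fell, and no other of the 8 passed the test. The comparison was not used to pick the genes, but it shares the Cre WT libraries with the enrichment that did, so a direction common to the 8 genes is not independent of the choice. Of 14717 genes tested, 2.32% were called (342) and 1.11% were called lower in P278KY, against 1 of the 8 genes. In bulk samples, fewer cells of a type and less RNA per cell cannot be told apart. Of the 8 log2 fold changes, 7 were below 0, with a median of -0.46 against -0.01 over all genes tested.

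Susd2 had 515, 563, 335 and 380 CPM in Cre WT and 125, 130 and 115 CPM in Cre P278KY. The groups did not overlap, the P278KY values were close together, and the highest of them was less than the lowest WT value by more than 2-fold. The mean was 123 ± 7.53 CPM (SD, n = 3) against 448 ± 108 CPM (n = 4), and the log2 fold change was -1.82 (SE 0.213, adjusted p = 0.00207 by edgeR's quasi-likelihood test), a 3.54-fold lower level. It was the 342nd lowest fold change of 14717. The call held in all 16 alternative settings, with log2 fold changes from -2.05 to -1.60 and adjusted p of at most 0.0277, among them pool 1 alone (3 against 2 libraries, -2.05, adjusted p = 6.80e-05). The value of -1.60 came from the fit with the mouse number as a block, which sets pool 1 P278KY against pool 2 WT libraries. In the NoCre groups Susd2 had 37.0, 23.0, 31.4, 42.0 and 32.1 CPM in WT and a lowest, median and highest value of 13.9, 19.4 and 27.1 CPM in P278KY.

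Fxyd7 had 251, 280, 85.4 and 133 CPM in Cre WT and 63.5, 55.2 and 76.8 CPM in Cre P278KY. Every P278KY library was below every WT library, but the pool 2 WT libraries were much nearer to the P278KY values than those of pool 1. The log2 fold change was -1.48 (SE 0.366), and the adjusted p of 0.0746 from edgeR missed the threshold. Lgals1 had 193, 290, 87.3 and 81.3 CPM in Cre WT and 62.0, 59.2 and 75.7 CPM in Cre P278KY, a change of -1.26 on the log2 scale (SE 0.400, adjusted p = 0.159 by edgeR). Its groups did not overlap either, but the gap between the highest P278KY and the lowest WT library was small. Fxyd7 was called in 4 of 16 alternative settings, which were DESeq2 (adjusted p = 0.00192), no filter on low counts (0.0444), the fit without Cre WT replicate 3 (0.00727) and pool 1 alone, and Lgals1 in 2 (DESeq2, adjusted p = 0.0242, and pool 1 alone). Over all genes compared, 8.48% had every Cre P278KY library below every Cre WT library, as did Susd2, Fxyd7 and Lgals1 of the 8.

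Sncg had 267, 420, 191 and 150 CPM in Cre WT and 155, 172 and 180 CPM in Cre P278KY, so that the groups overlapped (log2 fold change -0.56, SE 0.289, adjusted p = 0.387 by edgeR). Anxa2 had 226, 239, 128 and 140 CPM against 153, 144 and 145 CPM, with the P278KY libraries between the 2 pools of WT libraries (-0.28, SE 0.229, adjusted p = 0.608). The log2 fold change was -0.37 for Stk32a (SE 0.209, adjusted p = 0.429), -0.10 for Vdr (SE 0.252, adjusted p = 0.898) and 0.10 for Arhgap36 (SE 0.206, adjusted p = 0.857). Among the settings tried, Vdr changed sign when Cre P278KY replicate 3 was left out (0.17) or when library sizes without ribosomal RNA genes were used (0.01), Arhgap36 within pool 1 (-0.13), and Anxa2 in 1 of 16 settings. Chat, at -0.17 (SE 0.258, adjusted p = 0.811), did not pass the test. Of the 10 cholinergic neuron markers 1 was called lower and none higher, with a median of -0.25. That marker was Chodl, at 72.0 ± 8.28 CPM in Cre P278KY against 427 ± 183 CPM in Cre WT (-2.53, adjusted p = 0.00320 by edgeR).

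Sequencing pool moved with these values. In Cre WT the pools did not overlap for any of the 8 genes, and 7 were higher in pool 1, by 2.86-fold for Lgals1, 2.43-fold for Fxyd7, 2.02-fold for Sncg, 1.73-fold for Anxa2, 1.54-fold for Arhgap36, 1.51-fold for Susd2 and 1.18-fold for Vdr, while Stk32a was higher in pool 2, with a mean of 155 against 130 CPM. Chat was 1.88-fold higher in pool 1, and the oligodendrocyte gene Mbp 3.38-fold higher in pool 2. The pools did not overlap either for Chat, Mbp, Rpl22, Gars and the microglia marker C1qb. They overlapped for the cholinergic neuron marker Slc5a7. The share of all genes without overlap between pools was not computed, so nothing particular to the 8 genes is read from their count. On the TPM scale Fxyd7 and Lgals1 were again higher in pool 1, the pools overlapped for Sncg, and the other 5 genes were higher in pool 2. The direction of the pool difference thus depended on the scaling for Susd2, Anxa2, Arhgap36 and Vdr. Within pool 1, where Cre P278KY and 2 Cre WT libraries can be compared directly, 4.81% of 14753 genes were called lower in P278KY, and 4 of the 8 genes were among them. These were Susd2, Fxyd7 (log2 fold change -1.95, adjusted p = 0.000145 by edgeR), Lgals1 (-1.80, adjusted p = 0.000431) and Sncg (-0.94, adjusted p = 0.0187). Anxa2 (-0.58, adjusted p = 0.0666), Stk32a (-0.19), Vdr (-0.17) and Arhgap36 (-0.13) did not pass. The pool 1 comparison sets 3 mice, of which 2 were female, against 2 males, so sex and genotype were not balanced in it. Pool 2 held no Cre P278KY library and gives no value.

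**Figure D3:**
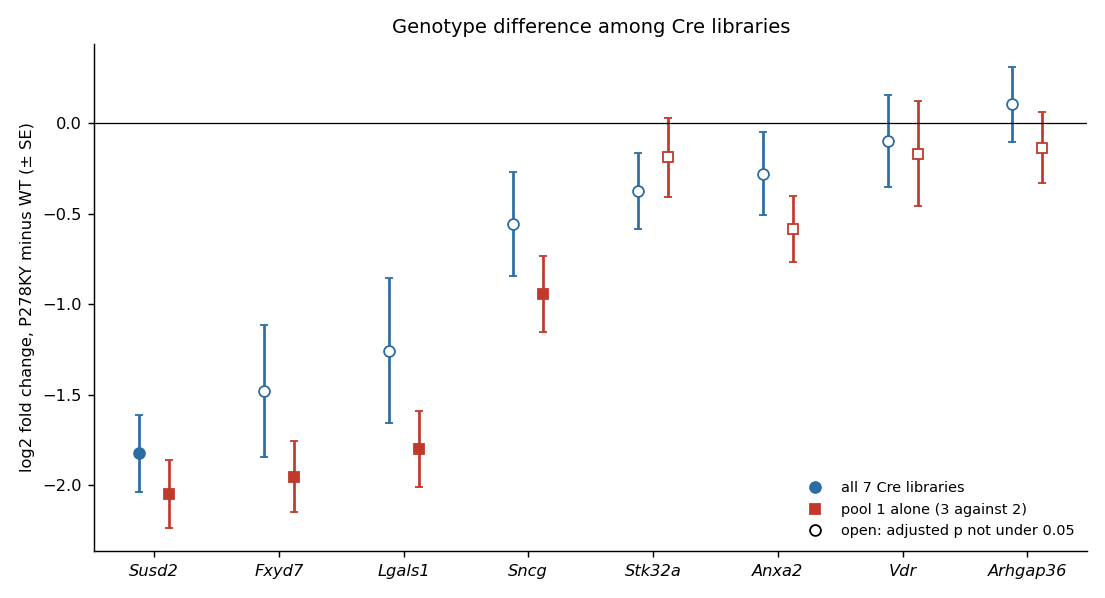
Log2 fold change of Cre P278KY over Cre WT with its SE for the 8 genes, for all 7 Cre libraries (circles) and pool 1 alone (squares), with open symbols where the adjusted p was not under 0.05. Susd2 is past the threshold in both fits, and Fxyd7, Lgals1 and Sncg are past it only within pool 1.

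Markers of other cells also moved with the groups, and their part in these results was not tested. Of 4 tested markers of sensory ganglion neurons (12 listed), 2 rose in Cre P278KY, P2rx3 (log2 fold change 4.86, adjusted p = 0.0102 by edgeR) and Avil (4.35, adjusted p = 0.0216). The other 2 did not pass, and lay lower: Scn10a had no reads in Cre P278KY and 0.396 to 7.10 CPM in Cre WT (adjusted p = 0.0877), and Pou4f1 had a log2 fold change of -0.47. The summed level of 7 markers was 37.4 to 51.5 CPM in Cre P278KY and 3.55, 3.05, 2.56 and 28.5 CPM in Cre WT replicates 1 to 4. The mix differed between the groups, so the sums rested mostly on different genes. P2rx3 (21.3 to 34.9 CPM) and Avil (14.6 to 17.3 CPM) made up most of the sum in Cre P278KY, while in Cre WT they reached at most 2.19 and 1.89 CPM, and Scn10a, Scn11a (up to 6.54 CPM), Pou4f1 (up to 4.95 CPM) and Tmem233 (up to 4.78 CPM) reached more. All 12 had reads in at least 1 Cre library, with 7 reads in all for Trpv1 and for Mrgpra3. The sum of 14 oligodendrocyte markers was 743 to 1846 CPM in Cre P278KY and 789 to 4382 CPM in Cre WT, and 0 of 14 were called (median log2 fold change -1.51). The sum of 9 Schwann cell markers was 460 to 692 CPM against 697 to 2264 CPM. Mbp, which both lists hold, made up most of this sum except in Cre WT replicate 1 (338 of 697 CPM). Without Mbp it was 187 to 243 CPM against 358 to 526 CPM, and 2 of the 9 were called lower (Pmp22 and Prx). The sum of 10 skeletal muscle markers was 5.76 to 11.5 CPM against 23.4 to 133 CPM, with 0 called (median -2.71). No marker of the remaining cell types other than cholinergic neurons was called, but their levels also lay apart. The median log2 fold change was -2.72 for meningeal and fibroblast markers (sums of 47.7 to 91.7 CPM against 51.9 to 770 CPM), -1.17 for astrocyte, -1.09 for vessel, -0.11 for microglia and 0.32 for interneuron markers.

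Set against Chat in the same library, a ratio chosen after the values were seen, the genes fell into 2 sorts. The ratio of Susd2 to Chat CPM was 3.46, 3.33, 4.14 and 4.34 in Cre WT and 1.05, 1.33 and 1.18 in Cre P278KY. For Fxyd7 it was 1.69, 1.65, 1.05 and 1.52 against 0.531, 0.564 and 0.785, and for Lgals1 1.30, 1.71, 1.08 and 0.928 against 0.518, 0.605 and 0.774. In these 3 genes the ratio was lower in each P278KY library than in each WT library of either pool. The share of all genes with such a separation was not computed for this ratio, so their count is a description only. The ratio of Anxa2 to Chat was nearly constant, at 1.53 ± 0.0868 in Cre WT and 1.41 ± 0.115 in Cre P278KY, and its coefficient of variation in Cre WT was 5.67% against 31.1% for the CPM. Sncg (2.09 ± 0.389 against 1.63 ± 0.293), Arhgap36 (2.17 ± 0.295 against 2.55 ± 0.309), Stk32a (1.34 ± 0.629 against 1.03 ± 0.213) and Vdr (0.250 ± 0.0679 against 0.243 ± 0.0797) overlapped between the genotypes. Stk32a and Vdr varied more as a ratio to Chat than in CPM in Cre WT (47.1% against 13.8% for Stk32a and 27.2% against 9.73% for Vdr).

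**Figure D4:**
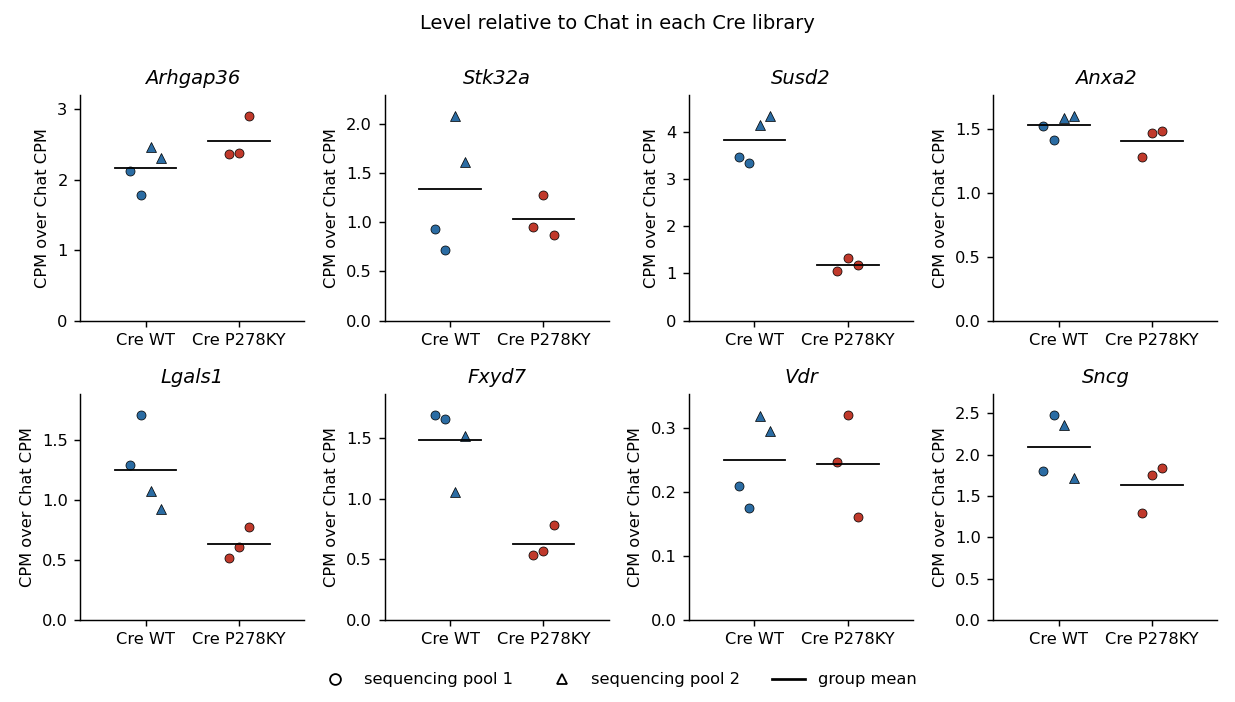
CPM of each gene over the CPM of Chat in the same Cre library, with circles for pool 1, triangles for pool 2 and a bar at the group mean. For Susd2, Fxyd7 and Lgals1 each Cre P278KY library lies below each Cre WT library (1.05 to 1.33 against 3.33 to 4.34 for Susd2), and the other 5 genes overlap.

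In the NoCre libraries, which hold RNA brought down without tagged ribosomes, none of the 8 genes passed the test between genotypes. By edgeR 0.0233% of 17133 genes were called (4), among them Chat, which had 2.88 ± 0.616 CPM in NoCre P278KY (n = 6) and 7.90 ± 2.92 CPM in NoCre WT (n = 5), which is a change of -1.45 on the log2 scale (adjusted p = 0.0339). The 10 cholinergic neuron markers, Chat among them, had a median log2 fold change of -0.61, and 2 were called lower. Of the 8 genes, 7 had a log2 fold change below 0, and the median was -0.63 against -0.00 over all genes. The unadjusted p was under 0.05 for 4 of them, Susd2 (-0.72), Lgals1 (-0.85), Arhgap36 (-0.62) and Anxa2 (-0.41), and for 1163 of all genes. In each of the 23 alternative settings, DESeq2 among them, none of the 8 was called. The groups overlapped for all 8 genes. With library size alone as the scaling, the median of all genes moved to 0.35 and Sncg changed sign (0.09). Over the 23 settings Stk32a changed sign in 6 (-0.08 to 0.38), Sncg in 2 and Fxyd7 in 1. This comparison shares its NoCre WT libraries with the enrichment in WT.

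Relatives and partners of the 8 genes were listed by family or pathway, and they were not picked for how they moved. Over all genes tested, 28.5% rose and 31.2% fell in Cre WT against NoCre WT, and the counts for each list are to be read against these shares. Sncb, which encodes beta-synuclein, had 62.7 ± 20.0 CPM in Cre WT and 31.8 ± 10.2 CPM in NoCre WT, a rise of 0.98 on the log2 scale (adjusted p = 0.00324 by edgeR), against 4.65 for Sncg. It rose in P278KY mice as well (1.50 on the log2 scale). Of 5 tested galectins other than Lgals1, Lgals8 alone rose in Cre WT (1.99), and Lgals4 fell, from 0.872 CPM in NoCre WT to no reads in Cre WT. Of 3 other Susd genes tested, Susd4 rose (0.96). Stk32c rose (1.52, adjusted p = 0.0397 by edgeR) and Stk32b, at 0.31, did not pass. Of 3 nuclear receptors of the same group as Vdr, none passed.

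Of 5 other Fxyd genes tested none rose in Cre WT, Fxyd4 fell (-4.67), and Fxyd6 had 31.2 ± 8.93 CPM against 18.9 ± 8.46 CPM (0.73, adjusted p = 0.0531 by edgeR). Fxyd4 was near the floor, at 0.0260 CPM in Cre WT and 0.998 CPM in NoCre WT, so its fold is imprecise. Of the beta subunits of the sodium pump, which Fxyd proteins modulate, Atp1b1 rose from 758 ± 145 to 2963 ± 210.4 CPM (1.97), Atp1b2 fell (-1.37), and Atp1b3 did not pass (-0.21, with another sign under 1 scaling). None of the 3 passed between genotypes in the Cre libraries, while Fxyd1 was lower in Cre P278KY than in Cre WT (-2.22, adjusted p = 0.0405 by edgeR).

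Anxa2 had enriched relatives. Of 8 other annexins tested, 5 rose in Cre WT, Anxa6 (log2 fold change 3.43), Anxa4 (3.10), Anxa7 (2.59), Anxa11 (1.86) and Anxa5 (1.33), and Anxa9 fell (-3.36), with a median of 1.60. The fold of Anxa9 is imprecise, since its level was 0.0999 CPM in Cre WT and 1.22 CPM in NoCre WT. S100a10, whose protein pairs with Anxa2, rose from 8.96 ± 3.41 to 148 ± 71.8 CPM (4.07, adjusted p = 4.48e-09 by edgeR), a log2 fold change above that of Anxa2 itself (3.49). Of 10 S100 genes tested, S100b also rose (0.97), and 6 fell. No annexin and no S100 gene passed the test between genotypes in Cre libraries. In P278KY mice 4 annexins rose and 2 fell.

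Of the partners of Vdr, Rxra rose in Cre WT from 23.5 ± 5.36 to 70.7 ± 3.13 CPM (1.59) and Rxrg from 0.586 ± 0.373 to 2.74 ± 0.764 CPM (2.15), while Rxrb did not pass (0.01, with another sign under 2 scalings). Of 12 tested genes for vitamin D partners and metabolism, 4 rose and 4 fell. Of 14 partners of Arhgap36, 7 rose, and they were the protein kinase A genes Prkaca (2.00), Prkacb (1.26), Prkar1a (1.46), Prkar1b (1.98), Prkar2a (1.46) and Prkar2b (1.78) with Pja2 (2.09), a ligase for the kinase. The 6 that fell were the hedgehog pathway genes Gli2, Gli3, Sufu, Ptch1, Smo and Hhip (log2 fold changes from -1.11 for Sufu to -2.01 for Gli3), and Gli1 did not pass. Of 30 other Arhgap genes tested, 4 rose and 10 fell in Cre WT, so that the share that fell was near that of all genes. Arhgap9 rose most (3.81) and was lower in Cre P278KY than in Cre WT, at 0.560 ± 0.130 against 8.02 ± 1.46 CPM (-3.77, adjusted p = 0.000521 by edgeR). Arhgap6 (-1.33, adjusted p = 0.0478) and Susd5 (-2.49, adjusted p = 0.0463) were lower in Cre P278KY too, and Arhgap33 was higher (2.55, adjusted p = 0.000819). None of these relatives passed the test between genotypes in NoCre libraries.

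**Figure D5:**
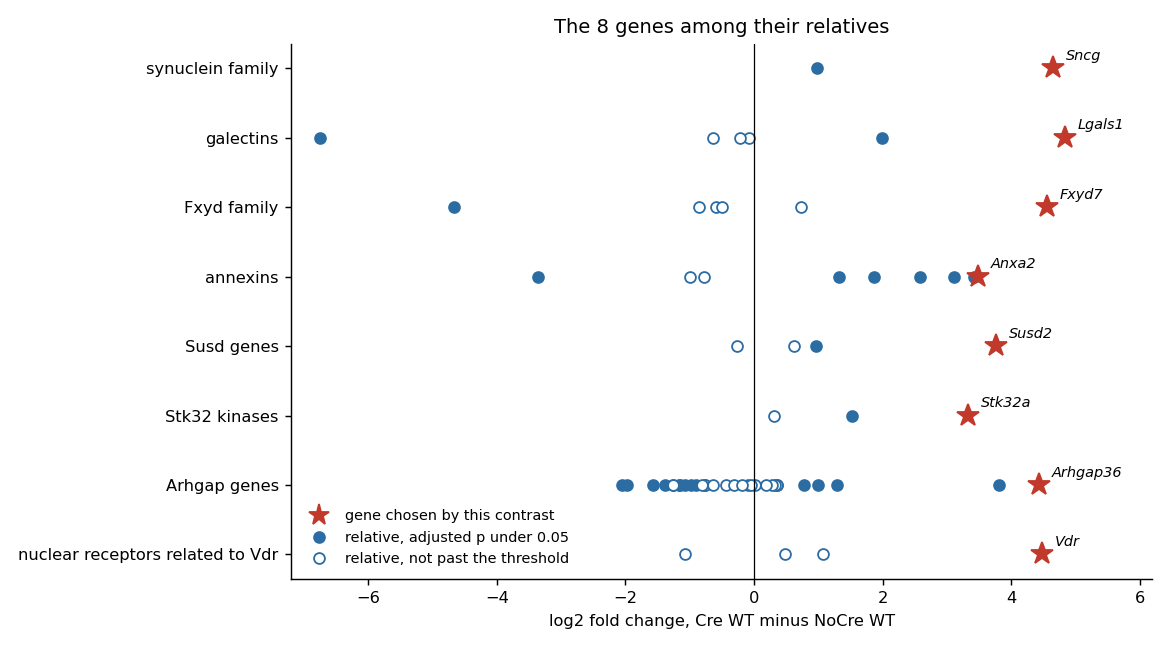
Log2 fold change of Cre WT over NoCre WT for the relatives of each gene (points, filled where the adjusted p was under 0.05), with a star for the gene that this contrast chose. Sncb lies at 0.98 against 4.65 for Sncg, Anxa6 lies at 3.43 beside Anxa2 at 3.49, and the fitted value of Lgals4, the galectin farthest to the left, measures no fold because it had no reads in Cre WT.

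The genes whose log2 CPM ran most like each of the 8 over the 18 libraries, among 11480 genes, are given as a description, since all enriched genes share the Cre and NoCre groups and their libraries' depth. Pearson's r was 0.993 with Acly, 0.991 with Ssx2ip and 0.990 with Pitpna for Arhgap36, for which Chat was at place 16. For Vdr it was 0.983 with Slc45a4, 0.980 with Mcam and 0.979 with Ywhab, with Chat at place 19. These 2 genes ran closest to Chat. Lgals1 was nearest to S100a10 (0.994), Tubb2a (0.990) and Cpne6 (0.989), and Anxa2 to Spp1 (0.988), Nkiras1 (0.986) and Cplx1 (0.986). Susd2 was nearest to Nefl (0.983), which encodes the light neurofilament chain, then Cpne6 (0.982) and Hdlbp (0.979), and Sncg to Tubb3 (0.988), a neuronal tubulin, Bag3 (0.986) and Capn1 (0.985). Fxyd7 was nearest to Lrsam1 (0.988), Ccdc92 (0.987) and Impdh1 (0.987), and Stk32a to Htr2a (0.984), Flot1 (0.981) and Ret (0.981). For Stk32a Chat was only at place 300 (r 0.945), and for Susd2 it was at place 247 with a lower r (0.931).

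Among themselves the 8 genes had r of at least 0.929 over all 18 libraries, for Susd2 with Arhgap36 and with Vdr. Over the 7 Cre libraries alone they did not run as one set. Lgals1 ran with Sncg (0.951), Fxyd7 (0.949) and Anxa2 (0.906), and Susd2 with Fxyd7 (0.899), while Stk32a ran against Arhgap36 (-0.572) and was near 0 with Sncg (0.04) and Anxa2 (-0.06). These values over 7 libraries include the difference between genotypes and that between pools in Cre WT, and they carry no test.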

How the data were processed

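Ribosome-associated RNA of 18 spinal cords was sequenced, and the authors deposited 1 table for each library that holds expected counts beside TPM and, per the file headers, has the layout of an RSEM gene table. Per the submitters' processing notes the tools were Bowtie2 2.2.0 and RSEM 1.2.12. Their genome build and annotation were not given in the sources used here. The deposited expected counts (whole for 83.0% to 87.4% of genes) were rounded to whole numbers, a change of at most 0.00025% in any library total. TPM, as deposited, served for levels per length only. Positions came from GENCODE M21 (GRCm38), which holds 37607 of the 38924 identifiers.

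Each comparison was tested, two-sided, with edgeR 4.0.16 in R 4.3.3 (filterByExpr, TMM, robust quasi-likelihood), with Benjamini-Hochberg adjustment over all genes tested and a threshold of 0.05. The Cre genotype difference used the 7 Cre libraries, and the others a fit of all 18 with 4 group means. Printed CPM are those of the 18-library fit, and log2 CPM used a prior count of 2. The procedure was tested on simulated data that held no difference between pools or sexes, so that test says nothing about either. Alternatives were other scalings, no filter, DESeq2 1.42.0, voom (limma 3.58.1), other sets of libraries, pool and mouse number. The 8 genes and the gene lists were chosen with earlier results of these data known. Some members of the lists are not reported here, and counts leave them out. Genes named are the 8, members of those lists, reference genes, and for each of the 8 the 3 genes with the highest r. That search covered genes with mean log2 CPM above 1 and left out the 8, predicted genes, pseudogenes, Xist and Y-linked genes. Counts from amplified reads are not independent molecules.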

Additional observations from a re-analysis of the deposited data

Results flagged for a closer look

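Lgals1 in NoCre P278KY was the only one of 24 sets of 4 to 6 libraries (8 genes in 3 groups) with a library far from the others. Replicate 6 was lowest, at 1.22 CPM from 7 reads, and its gap to the next library was 0.666 of the group's range of log2 CPM. Chance marks about 1 in 20 such sets.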

How the results depend on the processing

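The number of genes called between genotypes depended on the settings, while the direction of each called gene of the 8 did not. For the Cre genotype difference 342 genes were called, 148 with library size only, 157 with library sizes without ribosomal RNA genes, 972 with DESeq2, 1343 within pool 1 and 1664 with the mouse number as a replicate block. Leaving out 1 library gave 95 to 324, with 95, 121 and 126 without Cre P278KY replicates 1, 2 and 3. Of the 8 genes 1 was called, 2 without the filter, 3 with DESeq2, 4 within pool 1, and 1 to 2 when 1 library was left out. For the NoCre genotype difference 4 genes were called, 28 with DESeq2, and 2 with library size only, within pool 2, with the block or without NoCre WT replicates 4 and 5, and leaving out 1 library gave 2 to 6. The enrichment in WT gave 10227 calls and 4953 within pool 2. The cause of these differences was not tested.

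Calls for higher levels were 52.3% of the Cre genotype calls and 62.8% or 63.1% with library size only or without ribosomal RNA genes. They were 47.7% in the enrichment in WT (59.1% and 29.2%) and 47.5% in P278KY (28.4% without ribosomal RNA genes).

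Mouse numbers, whose meaning the labels do not give, were compared only between libraries of different groups. Whether libraries that share a number within a group resemble each other was not tested. Over 12 pairs of libraries from different groups with the same number the median correlation of deviations from group means was -0.01 (2 over 0.1), and over 107 other pairs -0.00363 (17 over 0.1). Among the Cre libraries only the number m17409 occurred in both genotypes. With the mouse number as a block, the Cre comparison therefore rests on Cre P278KY replicates 1 and 3 against Cre WT replicates 3 and 4. It sets pool 1 against pool 2, so genotype and pool cannot be told apart in it. In that fit Susd2 stayed called (-1.60), and Fxyd7 (-0.67), Lgals1 (-0.32) and Sncg (-0.05) were not called. Anxa2 (0.12) then changed sign, as did Fxyd7 (0.34), Stk32a (-0.04) and Sncg (0.04) in the NoCre comparison.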
